A study of Glycine max with 18 samples.

Results

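The genes described here are 4 soybean genes that match Arabidopsis genes of the low-oxygen response: Glyma.06G302900, Glyma.06G297600 and Glyma.13G301400, annotated as wound-responsive family proteins, and Glyma.16G037600, a match of the Arabidopsis plant cysteine oxidase gene AT5G39890. Each was read from 1 of the 66195 probes of the soybean GeneChip. Their choice used decreases from control to dehydrated roots and the difference between the control roots of the cultivars. The comparisons with and between the controls are therefore given as a description and without a test. The roots came from 14-d-old plants of DT2008, a cultivar labelled as having enhanced drought tolerance, and of Williams 82 (W82), the cultivar it was set against. Whole plants had been lifted from vermiculite and laid on paper towel for 0 h (DT-C and W-C), 2 h (DT-D2 and W-D2) or 10 h (DT-D10 and W-D10), with 3 biological replicates, and 3 arrays, in each of the 6 groups. The 0 h plants were well watered. By the study's measurements, the relative water content of the aerial parts was lower in W82 than in DT2008 at 2 h and at 10 h. Equal hours therefore did not mean equal water content in the cultivars. No group of plants was kept watered for 2 or 10 h, so that time since lifting and dehydration cannot be told apart. Per the methods, the lifted plants also lay in room air, cooler and in dimmer light than in the greenhouse. These conditions cannot be told apart from dehydration either.

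Plants sense low oxygen largely through the stability of transcription factors of the group VII ethylene response factors. With oxygen present, plant cysteine oxidases oxidize the cysteine at the start of these factors and so mark them for destruction. When oxygen runs short, as in waterlogged or compact root tissue, the factors persist and switch on a small set of genes that includes the plant cysteine oxidases themselves. In Arabidopsis the wound-responsive family genes AT4G10265 and AT4G10270 belong to the transcripts that accumulate under low oxygen. They encode small proteins whose biochemical role is little known.

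The deposited values are log2 intensities from which the median of each probe over the 18 arrays had been subtracted. A value of 3 therefore means that a transcript stood 3 log2 units above its own median, and levels cannot be compared between genes. A change is a log2 difference between group means with the standard error (SE) of a limma fit to all 18 arrays. A probe is called at an adjusted p under 0.05 over all 66195 probes and at least a 2-fold difference. Arrays of a group correlated at 0.369 to 0.721 over all probes, and no array of the series was a copy of another. Because values are centred, neither the presence of root transcripts nor the absence of shoot or nodule transcripts can be read from them. Only 1 probe of the root marker rule was found, the extensin family gene Glyma.18G025200, and its values follow beside those of the 4 genes. In whole roots, fewer cells that hold a transcript and less of it per cell cannot be told apart.

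Glyma.06G302900, on chromosome 6 and a match of AT4G10265, was high in the control roots of both cultivars and low after 2 h. In DT2008 roots the arrays gave 1.91, 2.48 and 2.69 in DT-C, -1.13, -1.41 and -0.83 in DT-D2, and -0.71, -1.18 and -0.11 in DT-D10. In W82 roots they gave 3.04, 2.74 and 2.90 in W-C, -1.02, -1.42 and -1.48 in W-D2, and 0.46, 0.11 and 0.56 in W-D10. Every dehydrated array lay below every control array of either cultivar. The log2 change was -3.48 for DT-D2/DT-C and -3.03 for DT-D10/DT-C, or 11.2-fold and 8.17-fold lower. It was -4.20 for W-D2/W-C and -2.52 for W-D10/W-C, or 18.4-fold and 5.73-fold lower (SE 0.24 for each). Both differences within a cultivar rest on the same 3 control arrays. Among the 66195 probes, ordered from the most negative change, it ranked 3 for DT-D2/DT-C and 4 for W-D2/W-C.

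Glyma.06G297600, a second match of AT4G10265 on chromosome 6, was high in a single group. Its values were 3.15, 3.54 and 4.07 in W-C, -0.21, -0.19 and -0.23 in W-D2, and 1.31, 0.00 and -0.19 in W-D10. Its values in DT2008 roots were 0.14, -0.01 and 0.06 in DT-C, 0.00, -0.26 and -0.32 in DT-D2, and -0.43, 0.00 and 0.17 in DT-D10. In DT2008 the gene hardly varied: the 9 arrays spanned 0.59 log2 units, against 4.30 for the 9 W82 arrays, where the median span of all probes was 0.79 in DT2008 and 0.77 in W82. In W82 it was 13.9-fold lower in W-D2 than in W-C (-3.80, SE 0.29) and 9.27-fold lower in W-D10 than in W-C (-3.21), and without replicate 1 of W-D10, the array at 1.31, the 10 h difference was -3.68. The corresponding differences in DT2008 were -0.25 for DT-D2/DT-C and -0.15 for DT-D10/DT-C. Between the control roots it was 11.5-fold lower in DT-C than in W-C (-3.52, SE 0.29), and -3.09 after quantile normalization. Whether the probe binds the DT2008 transcript as well as that of W82 was not tested.

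Glyma.13G301400, on chromosome 13 and also matching AT4G10265, was high in both control groups and low in all 4 dehydrated groups. In DT2008 its values were 2.35, 3.00 and 2.96 in DT-C, -0.39, -0.44 and -0.54 in DT-D2, and -0.14, -0.05 and 0.57 in DT-D10. In W82 they were 3.02, 2.89 and 3.56 in W-C, -0.46, -0.47 and -0.32 in W-D2, and -0.41, 0.05 and 0.09 in W-D10. The control groups overlapped, and every dehydrated array lay below every control array. The change was -3.23 for DT-D2/DT-C and -2.64 for DT-D10/DT-C, against -3.57 for W-D2/W-C and -3.25 for W-D10/W-C (SE 0.22 for each). Between the control roots it differed by -0.39 in DT-C/W-C, and the direction of that difference turned to 0.22 after quantile normalization.

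Glyma.16G037600, on chromosome 16, is the plant cysteine oxidase match. Its values in DT2008 roots were 0.67, 0.90 and 0.93 in DT-C, -0.37, -0.41 and -0.43 in DT-D2, and -0.43, -0.14 and -0.23 in DT-D10. In W82 roots they were 3.48, 3.12 and 2.97 in W-C, -0.10, 0.05 and 0.14 in W-D2, and 0.36, -0.05 and -0.48 in W-D10. Unlike Glyma.06G297600 it did separate control from dehydrated arrays in DT2008, but over a small distance. It was 2.36-fold lower in DT-D2 than in DT-C (-1.24, SE 0.18) and 2.14-fold lower in DT-D10 than in DT-C (-1.10). In W82 it was 8.95-fold lower in W-D2 than in W-C (-3.16) and 9.48-fold lower in W-D10 than in W-C (-3.25). The control difference was 5.11-fold, with DT-C below W-C (-2.35).

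**Figure D1:**
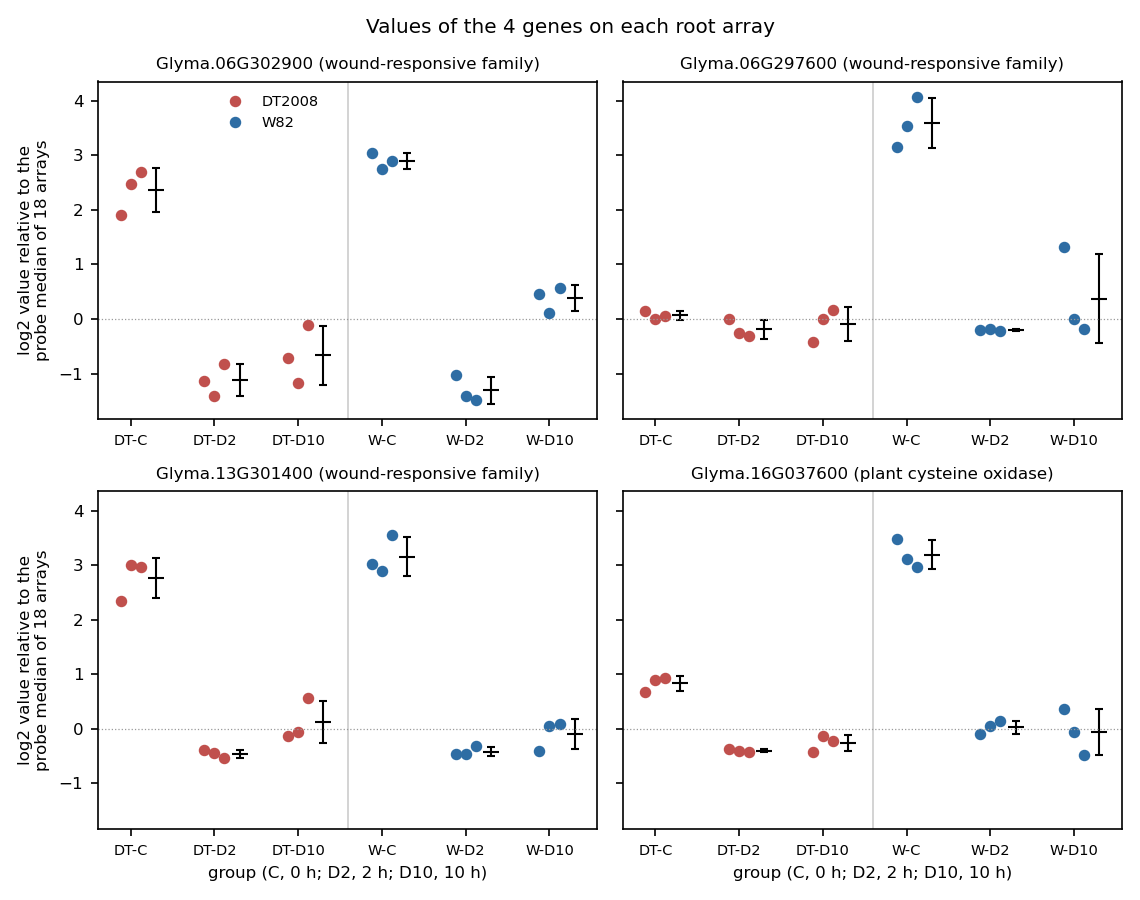
Log2 value of each of the 4 genes on every array, relative to the median of its probe over the 18 arrays, by group; points are the 3 arrays of a group, and the bar beside them is their mean and SD. Glyma.06G297600 stays between -0.43 and 0.17 on all DT2008 arrays, while its W-C arrays lie between 3.15 and 4.07.

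In the control roots the cultivars stood far apart for Glyma.06G297600 and Glyma.16G037600, and less than 2-fold apart for the other genes. For Glyma.06G302900 the DT-C/W-C difference was -0.53, with a change of direction to 0.07 after quantile normalization. Ordered by group mean, Glyma.06G302900 ran from W-C (2.89 ± 0.15, SD, n = 3) over DT-C (2.36 ± 0.41), W-D10 (0.38 ± 0.23) and DT-D10 (-0.67 ± 0.54) to DT-D2 (-1.12 ± 0.29) and W-D2 (-1.31 ± 0.25). Its neighbouring groups were separate except DT-D10 and DT-D2, and DT-D2 and W-D2. For Glyma.06G297600 only W-C (3.59 ± 0.46) stood clear of the next group, W-D10 (0.37 ± 0.82), and the 5 other groups overlapped in turn. For Glyma.13G301400 the single gap lay between DT-C (2.77 ± 0.36) and DT-D10 (0.13 ± 0.38). For Glyma.16G037600 gaps lay between W-C (3.19 ± 0.26) and DT-C (0.84 ± 0.14), and between DT-C and W-D2 (0.03 ± 0.12). The response of DT2008 minus that of W82 at 2 h was 3.54 (SE 0.41) for Glyma.06G297600, the highest value of any probe of the array, and 1.92 (SE 0.26) for Glyma.16G037600. It was 0.72 (SE 0.35) for Glyma.06G302900 and 0.35 (SE 0.30) for Glyma.13G301400, which turned to -0.16 after quantile normalization. At 10 h the same difference was 3.06, 2.15, -0.51 and 0.61 in that order of genes, with -1.15 for Glyma.06G302900 and 0.00 for Glyma.13G301400 after quantile normalization. These differences contain the control comparisons on which the genes were chosen and carry no test.

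Markers of other tissues, and the only probe of the root marker rule, moved in the same comparisons. That probe, of the extensin family gene Glyma.18G025200, averaged -2.32 in DT-C, 0.76 in DT-D2 and 0.10 in DT-D10. It averaged -2.15 in W-C, -0.07 in W-D2 and 0.65 in W-D10. It was called higher in all 4 comparisons with the controls, by 3.08 and 2.42 in DT2008 and by 2.08 and 2.80 in W82 after 2 and 10 h. Since it moved this far within root samples, it gives no measure of root tissue here. Of the 16 nodule probes, ENOD40B was called higher (1.04, with overlapping arrays) and ENOD93 lower in DT-C/W-C, where 1.44% and 2.07% of all probes were. ENOD93, an early nodulin, stood like Glyma.06G297600 and Glyma.16G037600 at its highest in W-C. It averaged 0.18 in DT-C, -0.43 in DT-D2 and -0.36 in DT-D10, against 1.98 in W-C, 0.28 in W-D2 and -0.51 in W-D10, with -1.80 for DT-C/W-C, -1.71 for W-D2/W-C and -2.49 for W-D10/W-C (SE 0.25 for each). A second nodulin probe, UR9, was called lower in W-D10/W-C (-1.25), and Glyma.17G073400 was called higher in all 4 comparisons with the controls, by 2.90 to 4.05. The mean of all 16 stayed between -0.21 and 0.19 on every array, but it averages these opposite moves and does not show that nodule transcripts held steady. Of the 6 shoot probes none was called in DT-C/W-C, but some were called against the control of their own cultivar. At 2 h, 2 were called higher in DT2008, where 2.89% of all probes were, and 1 in W82, where 1212 of 66195 probes were. None was called lower. At 10 h, DT2008 had 1 called higher (2.75% of all probes) and none lower. W82 had 2 called higher and 1 lower (3.49% and 1.66% of all probes). The part of other tissues in the differences of the 4 genes was not tested.

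Across the arrays the genes fell into pairs. Over all 18 arrays the Pearson correlation was 0.95 between Glyma.06G302900 and Glyma.13G301400, and 0.93 between Glyma.06G297600 and Glyma.16G037600, while the other 4 pairs lay between 0.67 and 0.84. Within the 9 DT2008 arrays Glyma.06G297600 correlated at 0.51 to 0.56 with the other genes, which correlated with each other at 0.97 to 0.99. Within the 9 W82 arrays all 6 pairs lay between 0.89 and 0.96. All these arrays share the contrast of control and dehydrated roots by which the genes were chosen. After the group means were removed the correlations ran from -0.21 to 0.49.

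The comparisons among dehydrated roots were not used to choose the genes, although their arrays also entered the comparisons with the controls. The 4 genes also stand in the study's sheets of genes selected on these arrays, some of which compare the cultivars at single times. The p-values and shares below are therefore those of selected genes, and nothing is read from them against all probes. Between 2 and 10 h in W82 a single gene of the 4 was called, where 1.45% of all probes were called in that direction. Glyma.06G302900 stood 3.22-fold higher in W-D10 than in W-D2 (log2 change 1.68, SE 0.24, limma adjusted p = 0.000269), with all 3 W-D10 arrays above all 3 W-D2 arrays. With -2.52 for W-D10/W-C, its W-D10 roots still stood well below the controls. The methods' t-test left this change at an adjusted p of 0.0727. Glyma.06G297600 differed by 0.58 in W-D10/W-D2 (95% interval -0.03 to 1.19, adjusted p = 0.254), Glyma.13G301400 by 0.32 (-0.13 to 0.78, adjusted p = 0.427) and Glyma.16G037600 by -0.08 (-0.46 to 0.30, adjusted p = 0.859).

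In DT2008 limma called none of the 4 genes between 2 and 10 h, where 2.23% of all probes were called. At an unadjusted p under 0.05 limma found 1, Glyma.13G301400, and the methods' t-test found 0. Glyma.06G302900 differed by 0.45 in DT-D10/DT-D2 (95% interval -0.06 to 0.97, adjusted p = 0.322), with overlapping arrays. Glyma.13G301400 differed by 0.59 (0.13 to 1.04, adjusted p = 0.113), with all 3 DT-D10 arrays above the DT-D2 arrays. Differences of Glyma.06G297600 and Glyma.16G037600 were 0.10 (-0.51 to 0.71) and 0.14 (-0.24 to 0.52).

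**Figure D2:**
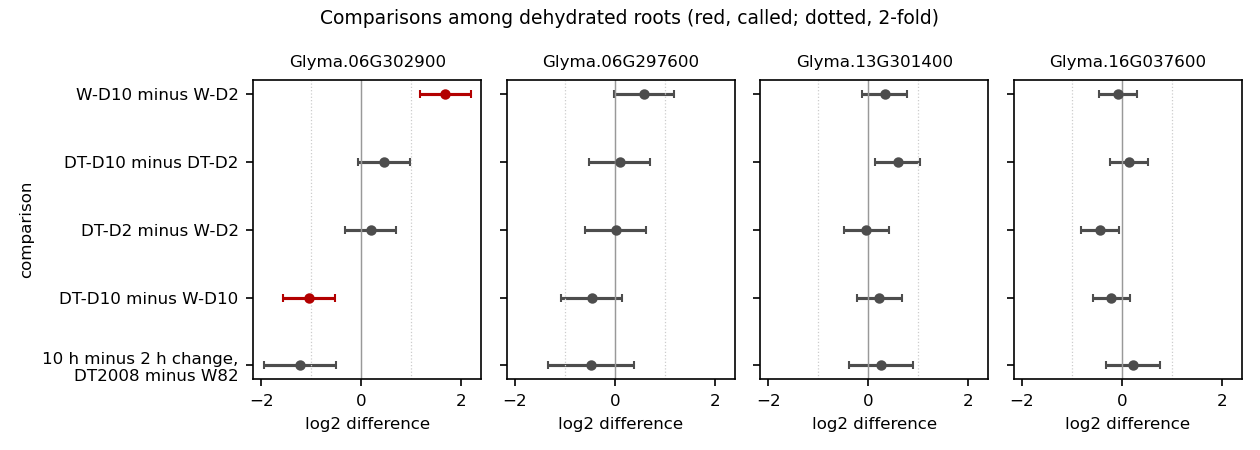
Log2 difference of each of the 4 genes in the comparisons among dehydrated roots, with 95% intervals of the limma fit to 18 arrays; red marks called differences and dotted lines a 2-fold difference. Glyma.06G302900 is called in W-D10/W-D2 (1.68) and in DT-D10/W-D10 (-1.05), and every other interval belongs to a difference that was not called.

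Between the cultivars at 2 h, limma called none of the 4 genes in DT-D2/W-D2, where 4.21% of all probes were called, and at an unadjusted p under 0.05 limma and the methods' t-test found 1 gene each. This was Glyma.16G037600, at -0.43 (95% interval -0.81 to -0.05, adjusted p = 0.125), whose 3 DT-D2 arrays all lay below the W-D2 arrays. The intervals of the others were -0.33 to 0.70 for Glyma.06G302900, -0.59 to 0.63 for Glyma.06G297600 and -0.49 to 0.41 for Glyma.13G301400, which leaves a 2-fold difference outside each of them. At 10 h 1 gene was called lower in DT2008, where 1.20% of all probes were called in that direction. Glyma.06G302900 was 2.06-fold lower in DT-D10 than in W-D10 (-1.05, SE 0.24, limma adjusted p = 0.0163), and no array of DT-D10 reached the W-D10 arrays. That call stood near both thresholds. It was lost with the methods' t-test (adjusted p = 0.317) and in a fit of these groups alone (adjusted p = 0.0564). It was also lost without replicate 1 (limma adjusted p = 0.0604) or 2 (0.102) of DT-D10, or replicate 1 (0.0644) or 3 (0.0538) of W-D10. The 10 h intervals of Glyma.13G301400, from -0.23 to 0.67, and of Glyma.16G037600, from -0.59 to 0.17, left out a 2-fold difference, whereas that of Glyma.06G297600, from -1.07 to 0.15, did not.

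Set against each other, the changes between 2 and 10 h in the cultivars differed for Glyma.06G302900 by -1.23 (DT2008 minus W82, SE 0.35), which did not pass the adjustment (limma adjusted p = 0.118). After quantile normalization the difference was -1.80 with an adjusted p of 0.034. limma called none of the 4 genes here, where 0.474% of all probes were called, and 1 of them, Glyma.06G302900, had an unadjusted p under 0.05. The other genes differed by -0.48 (Glyma.06G297600, adjusted p = 0.704), 0.26 (Glyma.13G301400, adjusted p = 0.805) and 0.22 (Glyma.16G037600, adjusted p = 0.798).

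The 4 genes belong to 19 probes whose genes match Arabidopsis genes known from low oxygen. All 19 were found in those supplementary sheets of the study that list genes selected on these arrays in single comparisons, with the controls or between cultivars at each time, so that the counts below describe a selected list. The 4 genes themselves supply 3 of the lower calls in each DT2008 comparison and 4 in each W82 comparison, and nothing is read from these counts against the shares of all probes. In DT-D2/DT-C 10 of the 19 were called lower and 1 higher, where 1.19% of all probes were called lower and 2.89% higher. The counts for DT-D10/DT-C were 14 lower and 2 higher (1.71% and 2.75% of all probes). For W-D2/W-C 15 were called lower, where 0.884% of all probes were, and the counts for W-D10/W-C were 16 lower and 2 higher (1.66% and 3.49%). The median change of the list was -1.04, -1.51, -2.70 and -1.98 in these comparisons, against -0.02, -0.02, -0.02 and -0.03 for all probes. With the methods' t-test 9 were called in each of the W82 comparisons, where it called 211 (W-D2/W-C) and 1189 (W-D10/W-C) of all probes.

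Of the 9 wound-responsive family probes, 5 lie on chromosome 6, 1 on chromosome 12 and 3 on chromosome 13, as their gene identifiers give. Those on chromosome 6 fall into 2 runs of close identifiers, one with Glyma.06G297600, Glyma.06G297800 and Glyma.06G298600 and one with Glyma.06G302900 and Glyma.06G303000. On chromosome 13 Glyma.13G301400 and Glyma.13G301700 are the protein-coding genes numbered 2460 and 2463 along the chromosome in the RefSeq annotation of Glycine_max_v4.0, and Glyma.13G282400 is number 2302. How far a probe of one gene also binds the transcripts of its relatives was not tested.

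Neighbours did not share 1 pattern. Glyma.06G297800 was, like Glyma.06G297600, raised only in W-C, with values of 1.10, 1.28 and 1.34 there, and its 9 DT2008 arrays spanned 0.33 log2 units. Its change was -0.08 for DT-D2/DT-C, -0.98 for W-D2/W-C and -1.27 for DT-C/W-C (SE 0.15 for each). Glyma.06G298600, the next of that run, went the other way between the control roots: its values were 2.20, 2.39 and 2.26 in DT-C against 0.31, 1.02 and 1.42 in W-C, a difference of 1.37 (SE 0.33). It was the only probe of the 19 called higher in DT-C than in W-C. After 2 h it stood lower in both cultivars, by -2.89 in DT-D2/DT-C and -2.16 in W-D2/W-C.

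Glyma.06G303000, the neighbour of Glyma.06G302900, had group means of 0.95 in DT-C and 2.07 in W-C, and differed by -1.28 in DT-D2/DT-C and -2.64 in W-D2/W-C (SE 0.16 for each). The 3 family genes on chromosome 13 were all high in the control roots. Glyma.13G301700 averaged 2.28 in DT-C and 2.89 in W-C, and Glyma.13G282400 averaged 1.98 in DT-C and 2.99 in W-C, and both were at most 0.52 in every dehydrated group. Between 2 and 10 h in W82 they parted: Glyma.13G282400 was called higher (1.27), whereas the differences of Glyma.13G301400 (0.32) and Glyma.13G301700 (-0.02) were not called. Glyma.12G200700 was the exception of the family. Its values were 1.40, 1.42 and 1.60 in DT-D10 against 0.03, -0.08 and -0.52 in DT-D2, and 1.19, 1.01 and 2.46 in W-D10 against -0.29, 0.64 and -0.24 in W-D2. It rose between 2 and 10 h by 1.67 in DT2008 (SE 0.30, limma adjusted p = 0.00228) and by 1.52 in W82 (adjusted p = 0.00361), and the groups at 2 and 10 h did not overlap in either cultivar.

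**Figure D3:**
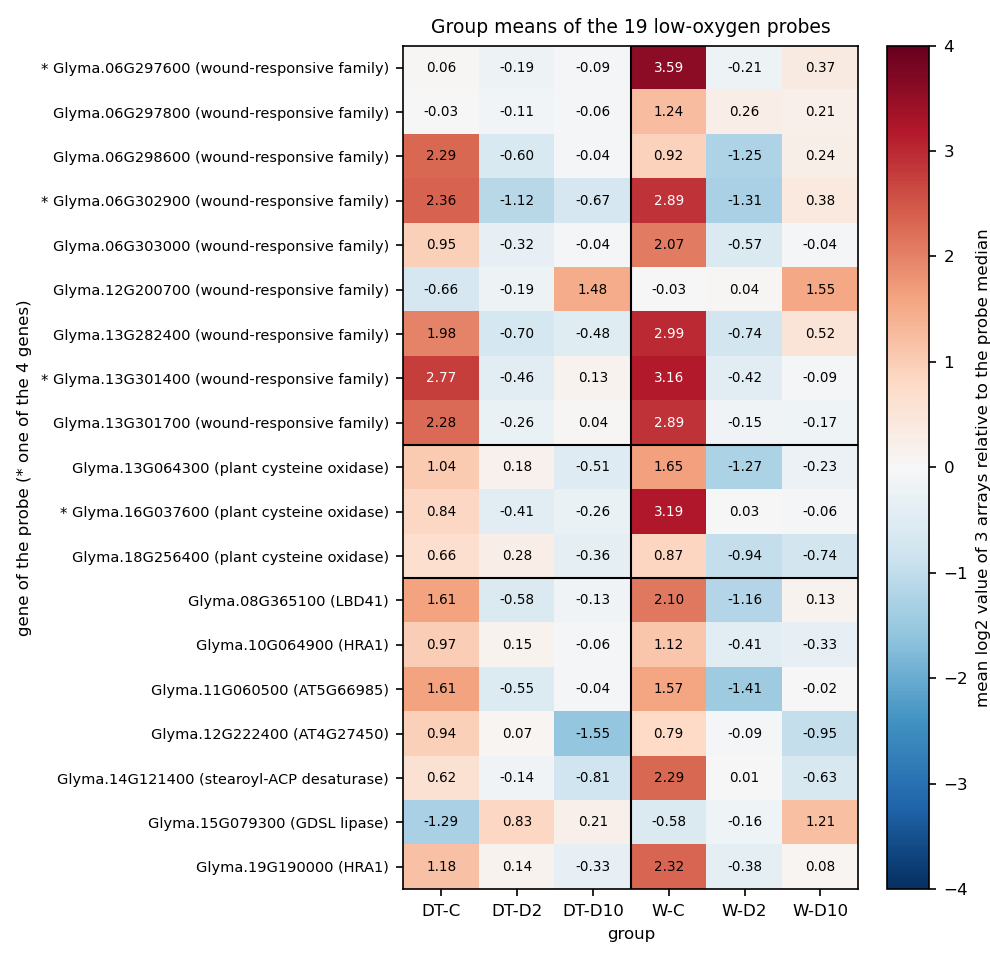
Mean log2 value of 3 arrays, relative to the probe's median over the 18 arrays, of the 19 low-oxygen probes in each group; asterisks mark the 4 genes described, and lines part the wound-responsive family, the plant cysteine oxidase matches and the other genes. Most rows are highest in DT-C and W-C, whereas Glyma.12G200700 is highest in DT-D10 (1.48) and W-D10 (1.55), and Glyma.15G079300 is lowest in DT-C (-1.29) and W-C (-0.58).

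Beside Glyma.16G037600, 2 further plant cysteine oxidase matches were measured, Glyma.13G064300 and Glyma.18G256400. Their control roots were closer than those of Glyma.16G037600, with -0.61 (SE 0.22) and -0.21 (SE 0.29) in DT-C/W-C. After 2 h it was the dehydrated roots that differed between cultivars. Glyma.13G064300 gave -0.28, 0.51 and 0.31 in DT-D2 against -1.42, -1.13 and -1.24 in W-D2, a difference of 1.44 (SE 0.22, limma adjusted p = 0.000265). Glyma.18G256400 gave 0.41, 0.12 and 0.31 in DT-D2 against -1.11, -0.89 and -0.81 in W-D2, which was 1.22 higher (SE 0.29, adjusted p = 0.00807). They were the only probes of the 19 called in DT-D2/W-D2, where 1.65% of all probes were called higher. After quantile normalization 5 were called, and 1 with the methods' t-test, which called 577 of all probes where limma called 2787. The sheets that supplied the list hold genes selected between the cultivars at 2 h. The count and p-values given here therefore describe a selected list, and nothing is read from them against all probes. In the same comparison 3 of the 6 shoot marker probes were called higher. Their mean lay between 0.50 and 0.75 on the DT-D2 arrays and between -0.38 and -0.07 on the W-D2 arrays, and none of the 16 nodule probes was called. The part of shoot tissue in these differences was not tested.

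The genes of transcription factors in the list were Glyma.08G365100, a match of LBD41, a LOB-domain factor, and Glyma.10G064900 and Glyma.19G190000, matches of HRA1, a trihelix factor that restrains the low-oxygen response in Arabidopsis. Glyma.08G365100 averaged 1.61 in DT-C and -0.58 in DT-D2, and 2.10 in W-C and -1.16 in W-D2. In DT-C/W-C Glyma.19G190000 differed by -1.14 (SE 0.25) and Glyma.10G064900 by -0.15 (SE 0.18). Among the enzymes, Glyma.14G121400, a stearoyl-acyl carrier protein desaturase, which makes oleate from stearate, averaged 0.62 in DT-C against 2.29 in W-C. Glyma.12G222400, a match of AT4G27450, averaged -1.55 in DT-D10 and 0.07 in DT-D2, and fell between these times by 1.62 (SE 0.19, limma adjusted p = 5.62e-05). Over the list 7 probes were called lower and 1 higher in DT-C/W-C, where 2.07% and 1.44% of all probes were. Only 5 were called without replicate 1 of W-C or after quantile normalization, and 3 with the methods' t-test. Of all probes that test called 325, against 2317 with limma. The list's sheets hold genes selected on this comparison too, so that these counts describe a selected list.

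In W-D10/W-D2 8 of the 19 probes were called higher, where 1.45% of all probes were, and none lower, where 0.991% were. At an unadjusted p under 0.05 limma found 9 higher and 2 lower. The 8 were the family genes Glyma.06G302900, Glyma.06G298600 (1.49, adjusted p = 0.00754), Glyma.13G282400 (1.27, adjusted p = 0.000587) and Glyma.12G200700, and Glyma.08G365100 (1.29, adjusted p = 0.00181), Glyma.11G060500 (1.39, adjusted p = 0.00145), Glyma.13G064300 (1.04, adjusted p = 0.0058) and the GDSL lipase Glyma.15G079300 (1.37, adjusted p = 0.000607). In DT-D10/DT-D2 1 was called higher, Glyma.12G200700, and 1 lower, Glyma.12G222400, where 1.24% and 0.986% of all probes were. The median change of the list was 0.14 in DT2008 and 0.53 in W82, with that of all probes at -0.01 and 0.00. None of these calls held with the methods' t-test after adjustment, and 5 of the 19 probes in DT-D10/DT-D2 and 10 in W-D10/W-D2 had an unadjusted p under 0.05 in the methods' t-test. After adjustment that test called few probes of the whole array: 28 in DT-D10/DT-D2 and 62 in W-D10/W-D2, against 1474 and 1614 with limma. The list was selected in part on comparisons with the controls that share these 2 h and 10 h arrays. Nothing is read here from its counts and medians against those of all probes.

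The test of the difference between the cultivars called 2 of the 19, both lower in DT2008, where 0.292% of all probes were. For Glyma.15G079300 the change between 2 and 10 h in DT2008 minus that in W82 was -1.98 (SE 0.31, limma adjusted p = 0.00944). Its arrays gave 0.17, 0.41 and 0.07 in DT-D10 against 0.53, 1.44 and 0.51 in DT-D2, and 1.00, 1.32 and 1.32 in W-D10 against -0.32, -0.07 and -0.07 in W-D2. For Glyma.13G064300 it was -1.72 (SE 0.31, adjusted p = 0.0205), a call that was lost without replicate 1 of W-D2, replicate 2 or 3 of DT-D2, or replicate 1 of DT-D10, which left 1 of the 19 in each case. The median of this difference was -0.76 over the list and 0.00 over all probes. It was -0.50 over the 6 shoot probes, of which 5 were below zero and none was called, and whose mean was 0.10 in DT-D10 against 0.58 in DT-D2, and -0.16 in W-D10 against -0.20 in W-D2. The part of shoot tissue was not tested here either. At 10 h the cultivars themselves differed for 2 of the 19, where 1.20% of all probes were called lower in DT2008. Beside Glyma.06G302900 this was Glyma.13G282400, which was 2.01-fold lower in DT-D10 than in W-D10 (SE of the log2 difference 0.20, adjusted p = 0.00537). Leaving out replicate 1 of DT-D10 left none of the 19 called. Leaving out any single W-D10 array, or replicate 2 of DT-D10, left 1 of the 19, which was not always 1 of these 2 genes. Glyma.06G302900 lost its call without replicate 1 or 3 of W-D10 and without replicate 1 or 2 of DT-D10. The list's sheets hold genes selected between the cultivars at 2 h and at 10 h. The counts and p-values of this paragraph therefore describe a selected list.

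**Figure D4:**
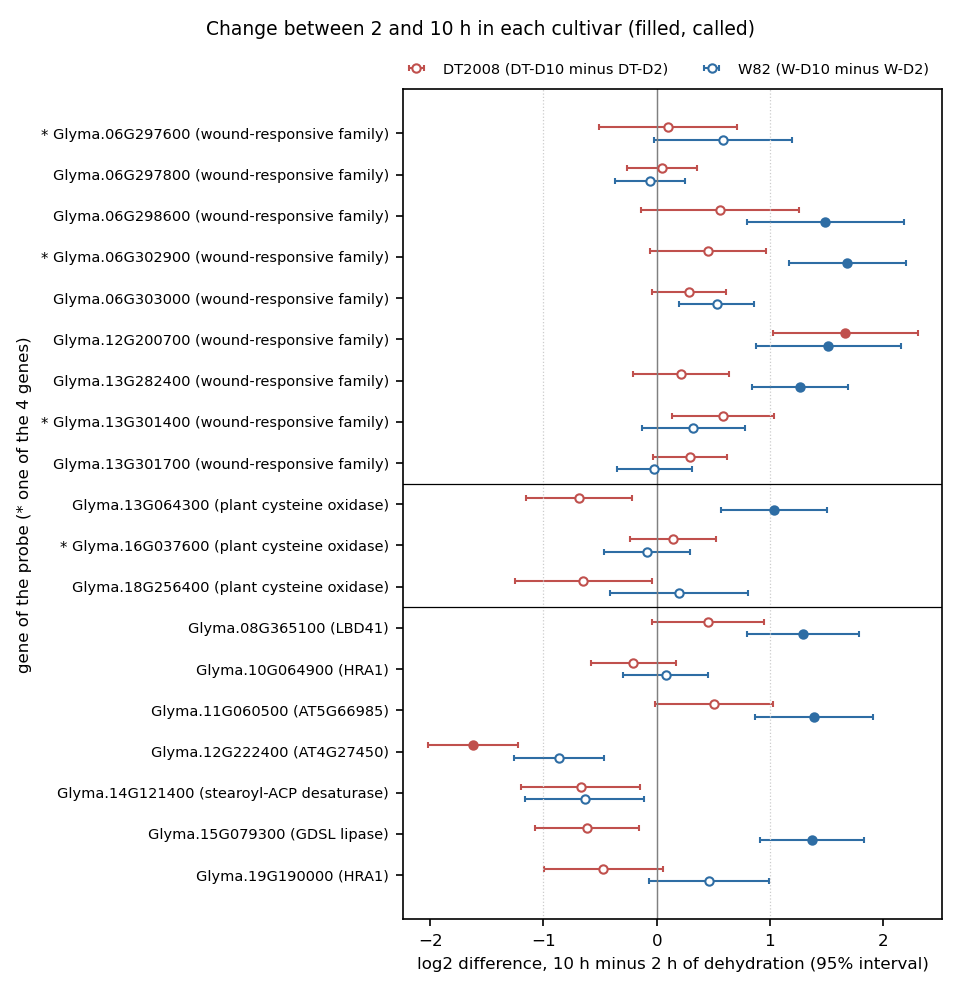
Log2 difference between 10 h and 2 h of dehydration for the 19 low-oxygen probes in DT2008 (red) and W82 (blue), with 95% intervals of the limma fit; filled points are called, and dotted lines mark a 2-fold difference. In W82 8 points are called, all higher at 10 h, and in DT2008 1 is called higher (Glyma.12G200700) and 1 lower (Glyma.12G222400).

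Of fermentation genes a single probe was found by name, with the array symbol SS, sucrose synthase, which supplies sugar for energy metabolism. Its mean was -0.11 in DT-D10 and -0.58 in W-D10, and it was not called in any comparison among dehydrated roots. It differed by -0.71 in W-D10/W-D2 (SE 0.18, limma adjusted p = 0.0152), under 2-fold, and its change between 2 and 10 h differed by 0.86 between the cultivars (DT2008 minus W82, SE 0.25, adjusted p = 0.125). Alcohol dehydrogenase, pyruvate decarboxylase, lactate dehydrogenase and hemoglobin were not analysed here.

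Among all probes paired with exactly 1 gene, the 5 most like each of the 4 genes over the 18 arrays were listed by Pearson correlation. Nearest to Glyma.06G302900 were Glyma.13G149700 (0.968), annotated as a DNA-binding transcription factor, the family gene Glyma.13G282400 (0.964), Glyma.08G365100 (0.952), Glyma.13G301400 (0.951) and Glyma.06G091900 (0.951), a hydroxyproline-rich glycoprotein. Nearest to Glyma.13G301400 was its neighbour Glyma.13G301700 (0.980), followed by Glyma.13G149700 (0.964) and Glyma.14G056300 (0.952), a match of the abscisic acid receptor PYL5. The other pair had other companions. Glyma.06G297600 was most like Glyma.09G033700 (0.950), an invertase or pectin methylesterase inhibitor, then Glyma.06G297800 (0.929) and Glyma.16G037600 (0.928). Glyma.16G037600 was most like a probe known only by the array symbol SHOOT2 (0.955), which 3 probes share, among them those of Glyma.13G149700 and Glyma.19G190000, then Glyma.09G033700 (0.951) and Glyma.08G254400 (0.931), a match of bZIP42. Of the 20 most alike probes, 10 could be paired with 1 gene for Glyma.06G302900 and for Glyma.13G301400, but only 3 for Glyma.06G297600 and 4 for Glyma.16G037600, so that most companions of that pair stay unnamed. Glyma.09G033700 averaged 0.14 in DT-C, -0.01 in DT-D2 and -0.03 in DT-D10, against 1.87 in W-C, -0.05 in W-D2 and -0.21 in W-D10, and was high in W-C alone, as was Glyma.06G297600.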

How the data were processed

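The authors hybridized RNA of roots to the soybean GeneChip and, per the labels, processed the scans with RMA in Affymetrix Expression Console, whose versions are not given in the sources used here. GeneSpring version 11 is named in the methods for later steps. The deposited values are log2 intensities of 66195 probes on 18 arrays, each probe centred on its median. They were used without further scaling. The number of arrays, 3 per group, limits the precision. Group means were fitted to all 18 arrays with limma 3.58.1 in R 4.3.3 (12 residual degrees of freedom), with Benjamini-Hochberg adjustment over all probes. Called means an adjusted p under 0.05 and at least 2-fold, the methods' thresholds. The fit was tested on simulated data. Probes were paired with genes through identifiers in the supplementary tables (2975 probes) and the array's symbols (3106), and 5830 had exactly 1 gene. Columns with the authors' own fold changes and p-values in those tables were not used.

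The genes, the lists and the comparisons were chosen with earlier results of these data known. Named are the 4 genes, every probe of the low-oxygen and fermentation lists, and the 5 probes most like each gene. Shoot tissue was followed with 6 photosynthesis probes and nodules with 16 nodulin probes. Alternatives tried were the methods' t-test, a fit of the compared groups alone, a replicate block, centring of arrays, quantile normalization, eBayes with robust, arrayWeights, no fold threshold, only probes with 1 gene, and leaving out each array. Plots were drawn in Python 3.11.15 (Matplotlib 3.10.9), and tables handled with pandas 2.3.3 and NumPy 2.4.6.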

Additional observations from a re-analysis of the deposited data

Results flagged for a closer look

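For Glyma.13G064300, a plant cysteine oxidase match, the change between 2 and 10 h differed between the cultivars by -1.72 (DT2008 minus W82, limma adjusted p = 0.0205): it was -0.68 in DT2008 and 1.04 in W82. For Glyma.15G079300, a GDSL lipase, that difference was -1.98 (adjusted p = 0.00944), with -0.62 in DT2008 and 1.37 in W82. In both genes all 3 DT-D10 arrays lay below the DT-D2 arrays, and all 3 W-D10 arrays lay above the W-D2 arrays. The rises in W82 were called, but the falls in DT2008 were not (limma adjusted p = 0.0698 for Glyma.13G064300 and 0.0988 for Glyma.15G079300). The call of Glyma.13G064300 was lost without replicate 1 of W-D2, replicate 2 or 3 of DT-D2, or replicate 1 of DT-D10. The 6 shoot marker probes had a median of -0.50 in the same difference, with 5 below zero and none called, and their part in it was not tested. Both genes come from the low-oxygen list, whose probes were selected on these arrays.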

How the results depend on the processing

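Of 403 counts of called probes under the alternatives, 371 stayed within 1.5 times the reported count. Of 1188 values for the 4 genes, 1160 counted as unchanged, and no called difference reversed. In the tested comparisons among dehydrated roots, unchanged means that no call was gained or lost. There 12 of 496 values changed sign, all of them uncalled. For the comparisons that involve controls, unchanged means a move smaller than the spread between replicates, whether or not the call held. The methods' t-test moved most counts: called among the 4 genes were 0 in W-D10/W-D2 and 0 in DT-D10/W-D10, and among the 19 probes 9 for W-D2/W-C and also 9 for W-D10/W-C, 3 in DT-C/W-C, 0 in W-D10/W-D2, 0 in DT-D10/DT-D2, 1 in DT-D2/W-D2 and 0 in DT-D10/W-D10. Over all probes that t-test also called fewer than limma: 211 against 1797 in W-D2/W-C, 1189 against 3407 in W-D10/W-C and 325 against 2317 in DT-C/W-C. Among dehydrated roots it called 62 against 1614 in W-D10/W-D2 and 28 against 1474 in DT-D10/DT-D2. Between the cultivars it called 577 against 2787 in DT-D2/W-D2 and 81 against 1143 in DT-D10/W-D10. In a fit of the compared groups alone, 0 of the 4 and 1 of the 19 were called in DT-D10/W-D10. With quantile normalization 1 of the 4 and 4 of the 19 were called for the cultivars' difference in change between 2 and 10 h, as with only probes of 1 gene (1 and 4), and 5 of the 19 in DT-C/W-C and 5 in DT-D2/W-D2, as with no fold threshold (5). The cause was not tested. Leaving out single arrays gave 0 to 1 of the 4 and 0 to 2 of the 19 in DT-D10/W-D10, 5 to 8 of the 19 in DT-C/W-C, and 1 to 3 of the 19 for the difference in change.

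Samples with the same replicate number in different groups did not deviate together (45 pairs, correlations -0.175 to 0.187, median -0.017), and 3 of 18 arrays were closest to their own number, so that the numbers do not pair the samples. With the replicate number as a block 8 of the 19 were called in W-D10/W-D2 and 1 of the 4, the same counts as without it, and the block moved no count past 1.5 times. With 3 arrays per group and centred values, levels of weakly hybridizing probes cannot be told from background.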
